A study of Rattus norvegicus with 9 samples.

Results

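The genes described here make, remove and sense prostaglandins: Pla2g4a, Ptgs1, Ptgs2, Ptges, Ptges2, Ptgis, Hpgd, Ptger2, Ptger4 and Ptgir. They were named as members of the prostaglandin pathway and found on the array as probe sets annotated with exactly 1 of these symbols, and a gene with more than 1 probe set was taken at the probe set with the highest mean over the 9 arrays. All 10 were measured, out of 14324 genes with such a probe set and 27342 probe sets in all. Each of the 9 Affymetrix GeneChip Rat Gene arrays carried RNA of rat aortic smooth muscle cells (RASMC), commercial primary cells grown for a limited number of passages and made quiescent for 24 hr in medium with 0.2% fetal bovine serum. All cells were rinsed in DMEM lacking K+ and then kept for 6 hr in DMEM with 3 mM ouabain (3 arrays), in K+-free DMEM (3 arrays) or in control DMEM (3 arrays). Ouabain is a cardiac glycoside that blocks Na+,K+-ATPase, the sodium pump, and removal of extracellular K+ halts the same pump, so both treatments raise intracellular Na+ and lower intracellular K+. The question was which transcripts respond to pump inhibition, and both treatments were set against the same 3 control arrays.

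Prostaglandin synthesis begins when cytosolic phospholipase A2, encoded by Pla2g4a, frees arachidonic acid from membrane phospholipids. The cyclooxygenases COX-1 (Ptgs1), made constitutively in many tissues, and COX-2 (Ptgs2), made on demand, convert arachidonic acid to the unstable prostaglandin H2, from which terminal synthases form prostaglandin E2 (Ptges, Ptges2) or prostacyclin (Ptgis). The products act on G protein-coupled receptors at the cell surface, among them the prostaglandin E2 receptors EP2 (Ptger2) and EP4 (Ptger4) and the prostacyclin receptor IP (Ptgir), which couple to cyclic AMP and relax vascular smooth muscle, and the dehydrogenase encoded by Hpgd starts their inactivation.

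The windows upstream of the start sites show what could be read of the regulatory sequence of these genes. RefSeq promoter windows of 250 bases before the annotated start (assembly GRCr8) were found for 8 of the 10 genes, and not for Ptges2 or Ptgis. The windows of Ptgs2 and Ptgs1 are printed because the 2 isoenzymes catalyse the same reaction and Ptgs2 alone passed the test, and that of Ptges because it encodes the inducible synthase that works with COX-2. Each is given 5′ to 3′ on the gene's own strand, with motif matches in capitals.
Ptgs2, chr13:64713813-64714062, plus strand: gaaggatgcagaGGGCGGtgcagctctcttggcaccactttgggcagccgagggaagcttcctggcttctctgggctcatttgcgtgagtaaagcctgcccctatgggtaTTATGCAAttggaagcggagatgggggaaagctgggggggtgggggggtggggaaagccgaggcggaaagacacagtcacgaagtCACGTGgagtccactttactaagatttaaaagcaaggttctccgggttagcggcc
Ptges, chr3:34586988-34587237, minus strand: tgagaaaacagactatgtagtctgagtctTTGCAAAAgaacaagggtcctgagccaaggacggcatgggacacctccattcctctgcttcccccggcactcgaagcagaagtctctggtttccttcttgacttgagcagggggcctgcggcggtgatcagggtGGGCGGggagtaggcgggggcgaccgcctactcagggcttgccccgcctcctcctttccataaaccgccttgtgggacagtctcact
Ptgs1, chr3:39981169-39981418, plus strand: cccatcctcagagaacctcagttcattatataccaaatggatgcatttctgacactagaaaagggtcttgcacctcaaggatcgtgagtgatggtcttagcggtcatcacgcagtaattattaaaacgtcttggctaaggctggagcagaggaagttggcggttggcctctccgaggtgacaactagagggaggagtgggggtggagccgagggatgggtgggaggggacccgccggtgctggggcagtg

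Both strands were searched for the CRE (TGACGTCA, in 1.7% of all 27457 windows), the CRE core (TGACG, 19.0%), AP-1 (TGANTCA, 6.36%), an NF-kB site (6.41%), C/EBP (TTNNGCAA, 9.2%), the E-box (CACGTG, 5.79%), the hypoxia response core (ACGTG, 16.9%), the GC box (GGGCGG, 32.4%) and the TATA box (TATAAA, 13.1%). The Ptgs2 window held a GC box at -238 to -233, a C/EBP match at -140 to -133 and an E-box at -55 to -50, counted from the annotated start, and the E-box contains the hypoxia response core on both strands. The Ptges window held a C/EBP match at -221 to -214 on the minus strand of the gene and a GC box at -87 to -82. The window of Ptgs1 held none of these motifs in the forms searched, and neither did those of Ptger2 and Ptger4. How many of all windows hold none of them was not counted. The original study gives the hypoxia response core as (A/G)CGTG, and its GCGTG form was not searched. That form occurs unmarked in the printed window of Ptgs2 and, on the minus strand, in that of Ptgs1. Pla2g4a had a TATA box match on its minus strand, Ptgir a GC box, and Hpgd a CRE core and a GC box. These matches describe letters in the windows and say nothing of whether a factor binds there. Whether they relate to the changes below was not tested. Pla2g4a and Ptgs2 are neighbours on chromosome 13 and point away from each other, with 0 protein-coding genes between them, whereas Ptges, Ptges2, Ptgs1 and Ptgis all lie on chromosome 3. Ptgir is on chromosome 1, Ptger4 on 2, Ptger2 on 15 and Hpgd on 16.

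All values below are log2 signals as the authors deposited them, so that a difference of 1 is a doubling, and probe sets of different genes were not ranked by level. A gene was called higher or lower where limma gave an adjusted p under 0.05 over all probe sets and the fold exceeded 1.2. Array medians lay between 6.76 and 6.80, and replicate arrays correlated at 0.996 to 0.998 over all probe sets. Smooth muscle markers were well represented: 6 of the 7 measured (of 8 listed) were above the array median on every array, the exception being Des (Acta2 was not analysed here), and their mean log2 signal was 9.56 to 9.68 in ouabain, 9.67 to 9.71 in K+-free medium and 10.05 to 10.09 in control, with 5 and 3 called lower under ouabain and in K+-free medium. Macrophage markers averaged 6.51 to 6.56 in ouabain, 6.35 to 6.41 in K+-free medium and 6.01 to 6.07 in control. Of these 7, Cd68 (log2 change 1.29 with ouabain and 0.94 in K+-free medium), Cd14 (1.27 and 0.43) and Csf1r (0.33 and 0.53) were called higher under both treatments and the other 4, Ptprc, Adgre1, Itgam and Aif1, under neither. The 4 endothelial markers measured (of 7 listed) averaged 6.03 to 6.15, 6.07 to 6.10 and 5.88 to 5.94 in ouabain, K+-free medium and control, and none was above the median on every array, with Cdh5 called higher under both treatments and Nos3 with ouabain. The 5 fibroblast markers averaged 8.15 to 8.25, 8.49 to 8.53 and 8.02 to 8.08 in the same order, and 3 of them were called higher in K+-free medium, among them Pdgfra (1.30). With ouabain limma called 0 of the 5, with 3 higher at an unadjusted p under 0.05, and Pdgfra gave -0.06. The part of these marker shifts in the results was not tested, and in bulk RNA fewer cells of a type and less RNA per cell cannot be told apart.

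With ouabain, Ptgs2, Ptges, Ptges2 and Ptgir were called higher and Ptger4 lower, 5 of 10 genes, where 32.5% of all probe sets were called (15.8% higher and 16.8% lower). In K+-free medium Pla2g4a joined the 4 genes called higher and Ptger4 was again lower, 6 of 10 genes against 33.9% of all probe sets (16.1% higher and 17.9% lower). Treated and control arrays did not overlap for 6 of the 10 genes with ouabain, 4 higher and 2 lower, where this held for 54.2% of all probe sets (32.7% higher and 21.5% lower). In K+-free medium they did not overlap for 6 genes as well, 5 higher and 1 lower, where it held for 57.1% (33% higher and 24% lower). The median log2 change of the 10 genes was 0.10 with ouabain and 0.25 in K+-free medium, against 0.07 and 0.06 over all probe sets. Calls were thus frequent on these arrays as a whole, and the largest change of the 10 genes under either treatment was that of Ptgs2. Both comparisons use the same control arrays, so their likeness carries no separate support. When each array was centred on B2m, which itself was 0.15 and 0.16 higher on the log2 scale under ouabain and in K+-free medium, the medians of all probe sets moved to -0.08 and -0.10, and the split of higher against lower calls moved to 2166 against 6223 with ouabain (4312 against 4583 without it) and 2375 against 7059 in K+-free medium (4391 against 4890 without it). Centring on the mean of 8 reference genes gave 2975 against 5205 and 3209 against 5605. No called change among the 10 genes turned its direction under either centring.

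**Figure D1:**
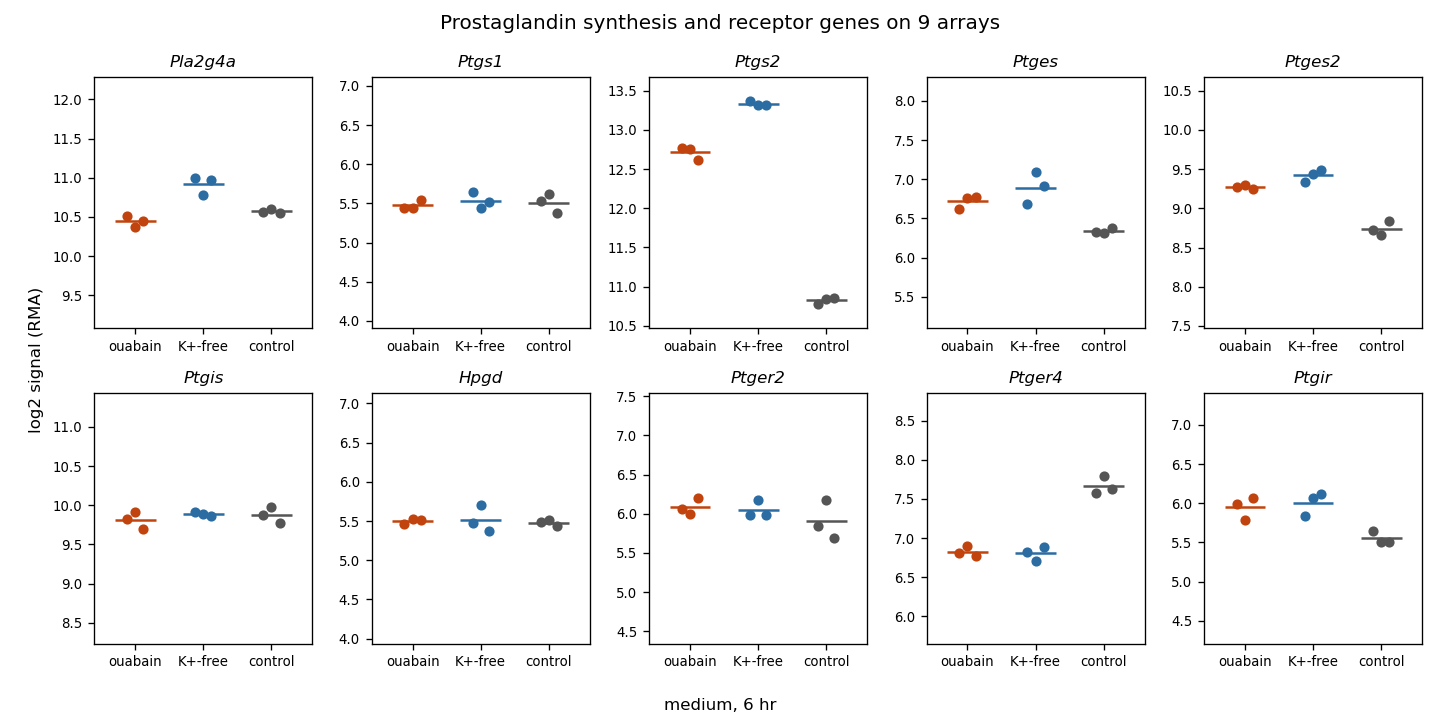
Log2 signal (vertical axis, all panels with the same span) of each of the 10 genes on every array, in ouabain, K+-free and control medium; points are arrays and lines are means of 3. The Ptgs2 points form 3 separate levels, between 13.31 and 13.36 in K+-free medium, between 12.62 and 12.77 in ouabain and between 10.78 and 10.85 in control, while those of Ptgs1, Ptgis and Hpgd overlap.

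At the first step, arachidonate release, the treatments differed. Pla2g4a gave log2 signals of 10.51, 10.37 and 10.45 in ouabain, 11.00, 10.78 and 10.97 in K+-free DMEM, and 10.56, 10.60 and 10.55 in control. All K+-free arrays were above, and all ouabain arrays below, every control array. The K+-free change of 0.35 (95% confidence interval 0.20 to 0.49, 1.27-fold, adjusted p = 0.00132) passed the test, whereas the ouabain change of -0.13 (interval -0.28 to 0.02, adjusted p = 0.142) did not. K+-free medium exceeded ouabain by 0.47 (interval 0.33 to 0.62, 1.39-fold, adjusted p = 0.000355), so cytosolic phospholipase A2 was one of 2 genes among the 10 for which the treatments themselves were told apart. Centred on B2m, the K+-free change was 0.19, under the fold limit, and the ouabain change became -0.28 with an adjusted p of 0.00349. The other centrings and a repeated quantile normalization kept the K+-free call.

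Of the 2 cyclooxygenases, Ptgs2 rose under both treatments and Ptgs1 passed the test under neither. Ptgs2 (COX-2) gave log2 signals of 12.77, 12.76 and 12.62 in ouabain, 13.36, 13.32 and 13.31 in K+-free DMEM, and 10.78, 10.84 and 10.85 in control. The 3 media formed 3 levels with no overlap, K+-free medium highest and control lowest. Ouabain raised Ptgs2 by 1.89 (interval 1.77 to 2.01, 3.71-fold, adjusted p = 2.15e-09) while K+-free medium raised it by 2.51 (interval 2.38 to 2.63, 5.68-fold, adjusted p = 1.67e-10). Ranked from the largest increase down, it stood 33rd of 14324 genes with ouabain and 48th in K+-free medium. Falls of larger size are not counted in these ranks. The 2 treatments also differed, K+-free medium being 0.62 above ouabain (interval 0.49 to 0.74, 1.53-fold, adjusted p = 1.59e-05). Leaving out any 1 array kept the ouabain change between 1.86 and 1.94 and the K+-free change between 2.48 and 2.52. The original study chose Ptgs2 partly for its rise on these same arrays, so the direction of Ptgs2 here is not independent evidence. Its other grounds were earlier work on hypoxia, and it went on to measure Ptgs2 by RT-PCR, which is not taken up here.

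Ptgs1 (COX-1) lay at 5.45, 5.45 and 5.54 in ouabain, 5.64, 5.44 and 5.52 in K+-free DMEM, and 5.53, 5.62 and 5.38 in control. The 3 groups overlapped fully, and every value was below its array's median. The change was -0.03 with ouabain (interval -0.19 to 0.13, adjusted p = 0.777) and 0.02 in K+-free medium (interval -0.14 to 0.19, adjusted p = 0.817). A change of Ptgs1 of the size seen for Ptgs2 lies outside these intervals. So dim a probe set may, however, understate a change.

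Among the terminal synthases, both prostaglandin E synthases rose and prostacyclin synthase did not pass the test. Ptges, the microsomal, inducible form, gave log2 signals of 6.62, 6.77 and 6.78 in ouabain, 6.68, 7.09 and 6.91 in K+-free DMEM, and 6.33, 6.32 and 6.37 in control. All treated arrays were above all control arrays, and the treated groups overlapped each other. The change was 0.38 with ouabain (interval 0.18 to 0.58, 1.30-fold, adjusted p = 0.00584) and 0.55 in K+-free medium (interval 0.35 to 0.75, 1.47-fold, adjusted p = 0.000439). The ouabain call was lost when arrays were centred on B2m (0.23, adjusted p = 0.0838). K+-free medium and ouabain differed by 0.17 (interval -0.03 to 0.37, adjusted p = 0.247), or by 0.28 (adjusted p = 0.0261) without K_Free replicate 1, whose value was the lowest of its group. Without K_Free replicate 2, the highest of the group, the difference was 0.08.

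Ptges2, a second prostaglandin E synthase that is made constitutively, gave 9.27, 9.30 and 9.25 in ouabain, 9.34, 9.44 and 9.49 in K+-free DMEM, and 8.72, 8.66 and 8.83 in control. The groups again stood in 3 steps with no overlap, in the same order as for Ptgs2. The change was 0.54 with ouabain (interval 0.40 to 0.67, 1.45-fold, adjusted p = 2.52e-05) and 0.69 in K+-free medium (interval 0.55 to 0.82, 1.61-fold, adjusted p = 3.06e-06). After a repeated quantile normalization the ouabain change was 0.72, above that interval, so its size depends on the normalization. The step between K+-free medium and ouabain, 0.15 (interval 0.01 to 0.29), missed the threshold after adjustment (adjusted p = 0.121). In both comparisons with control the change of Ptges2 was larger than that of the inducible Ptges on the log2 scale, a difference between genes that was not tested. Ptges was above the array median on only 3 of 9 arrays, and Ptges2 on all 9. The dimmer Ptges probe set may understate its change.

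Ptgis, which makes prostacyclin, gave 9.83, 9.92 and 9.70 in ouabain, 9.91, 9.89 and 9.87 in K+-free DMEM, and 9.87, 9.97 and 9.77 in control. The groups overlapped, with changes of -0.06 (interval -0.21 to 0.10, adjusted p = 0.524) and 0.02 (interval -0.14 to 0.17, adjusted p = 0.863) under ouabain and in K+-free medium. A second, dimmer Ptgis probe set gave -0.05 under each treatment (adjusted p = 0.629 and 0.645). In the deposited scaling, the intervals of the brighter probe set reach no further than 0.21 below and 0.17 above control, short of the limit of 1.2-fold. Centred on B2m, its ouabain change was -0.21 (adjusted p = 0.0318), under the fold limit and so not called. Hpgd, at the inactivating end of the pathway, lay between 5.37 and 5.70 on all 9 arrays, below every array median, with changes of 0.03 (interval -0.14 to 0.20) and 0.04 (interval -0.13 to 0.21) under ouabain and in K+-free medium.

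**Figure D2:**
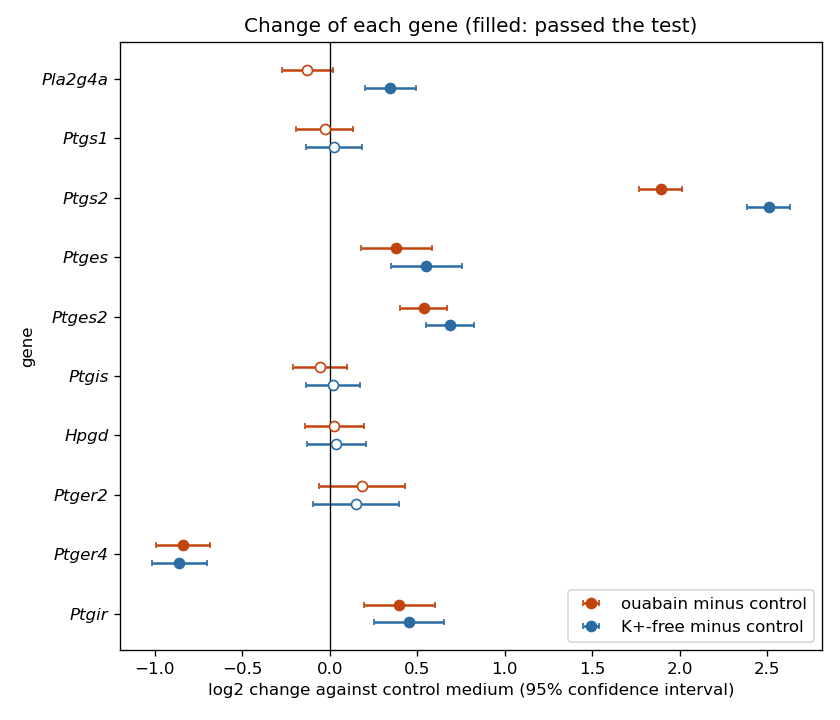
Log2 change against control medium (horizontal axis) of the 10 genes, with 95% confidence intervals, for ouabain and K+-free medium; filled points passed the adjusted p and fold limits. Ptgs2 stands at 1.89 and 2.51, Ptger4 at -0.84 and -0.86, and Pla2g4a is filled for K+-free medium only.

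Of the 3 receptors, Ptger4 fell and Ptgir rose under both treatments, and Ptger2 did not pass the test. Ptger4, the prostaglandin E2 receptor EP4, gave log2 signals of 6.81, 6.89 and 6.77 in ouabain, 6.82, 6.71 and 6.88 in K+-free DMEM, and 7.58, 7.79 and 7.62 in control. Every treated array lay below every control array, and the treated groups overlapped. Ptger4 fell by 0.84 with ouabain (interval -0.997 to -0.684, 1.79-fold lower, adjusted p = 2.10e-06) and, without extracellular K+, by 0.86 (interval -1.02 to -0.70, 1.82-fold lower, adjusted p = 1.52e-06). K+-free medium and ouabain differed by -0.02 for this gene (interval -0.18 to 0.14, adjusted p = 0.913), so a gap like the 0.62 between them for Ptgs2 lies outside its interval.

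Ptgir, the prostacyclin receptor, gave 5.99, 5.78 and 6.07 in ouabain, 5.84, 6.06 and 6.12 in K+-free DMEM, and 5.64, 5.50 and 5.51 in control. The treated arrays were all above the control arrays, although every value was below its array's median. Ptgir rose by 0.40 with ouabain (interval 0.20 to 0.60, 1.32-fold, adjusted p = 0.00426) and, without extracellular K+, by 0.45 (interval 0.25 to 0.65, 1.37-fold, adjusted p = 0.00173). Centred on B2m, the ouabain change was 0.24 and missed the threshold (adjusted p = 0.0512).

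Ptger2, the EP2 receptor, gave 6.06, 6.00 and 6.20 in ouabain, 5.99, 6.18 and 5.99 in K+-free DMEM, and 5.85, 6.17 and 5.69 in control, all below the array medians. Its changes of 0.18 with ouabain (interval -0.06 to 0.43, adjusted p = 0.207) and 0.15 in K+-free medium (interval -0.10 to 0.39, adjusted p = 0.302) did not pass the test. The control arrays spread widely (SD 0.25), and the changes depended on which of them were kept. Without Control replicate 2 they were 0.32 (adjusted p = 0.0162) and 0.28 (adjusted p = 0.0268), both past the threshold. Without Control replicate 3 they were 0.08 and 0.04. The array holds 2 Ptger2 probe sets with identical values, which were counted once.

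Between the treatments themselves, K+-free medium against ouabain, 2 of the 10 genes were called higher, Ptgs2 and Pla2g4a, where 16.4% of all probe sets were called (8.45% higher and 7.97% lower). By limma 0 of the 10 were lower, also 0 at an unadjusted p under 0.05, and 0 by the methods' t-test. The arrays of the 2 treatments did not overlap for 3 genes, all higher and Ptges2 being the third, where this held for 32.4% of probe sets (15.4% higher and 16.9% lower). The median difference of the 10 genes was 0.07, against -0.01 over all probe sets.

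Other genes of the pathway were counted from 4 lists of 36 genes, of which 33 had a probe set of their own. With ouabain 4 of these were called higher and 9 lower (39.4% called, against 32.5% of all probe sets). In K+-free medium 7 were called higher and 10 lower (51.5% against 33.9%), and between K+-free medium and ouabain 4 higher and 4 lower (24.2% against 16.4%). Their median log2 change was 0.03 under each treatment and -0.02 between K+-free medium and ouabain, beside 0.07, 0.06 and -0.01 over all probe sets.

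Of 9 genes that release or recycle arachidonate, 1 was higher and 3 lower with ouabain, and in K+-free medium 2 and 3, with medians of -0.10 and -0.18. Pla2g2a, a secreted phospholipase A2, gave log2 signals of 5.99, 6.13 and 6.10 in ouabain, 8.46, 8.37 and 8.16 in K+-free DMEM, and 5.87, 5.94 and 6.09 in control. Only the K+-free arrays stood apart: the K+-free change was 2.36 (5.14-fold, adjusted p = 3.66e-09) and the ouabain change 0.11 (interval -0.09 to 0.30, adjusted p = 0.326). All ouabain and control values lay below the array medians, where signal near background makes the size of the fold uncertain. The difference between K+-free medium and ouabain, 2.25 (4.77-fold, adjusted p = 2.46e-08), was thus far wider than that for Pla2g4a. The fibroblast marker Pdgfra differed in the same direction between the treatments (1.36, adjusted p = 8.95e-08). The other fibroblast markers were not called between them: Dcn gave 0.13, Lum and Fbln1 0.06 each and Dpt -0.06. The part of such marker differences was not tested. Acsl4, which couples arachidonate to coenzyme A and so returns it to lipids, gave 11.79, 11.64 and 11.74 in ouabain, 11.60, 11.39 and 11.58 in K+-free DMEM, and 10.37, 10.50 and 10.36 in control. It rose by 1.31 (2.49-fold, adjusted p = 8.00e-08) with ouabain and, without extracellular K+, by 1.12 (2.17-fold, adjusted p = 2.20e-07). Anxa1, which encodes a protein that restrains phospholipase A2, fell to 12.31, 12.23 and 12.39 in ouabain and to 11.92, 11.75 and 11.92 in K+-free medium, against 12.71, 12.73 and 12.78 in control. Its K+-free level was also below that in ouabain, by a log2 difference of -0.45 (adjusted p = 0.00038). Pla2g6, a calcium-independent phospholipase A2, was lower under both treatments (-0.55 and -0.39), as was Lpcat3, which puts arachidonate back into phospholipids (-0.37 under each).

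**Figure D3:**
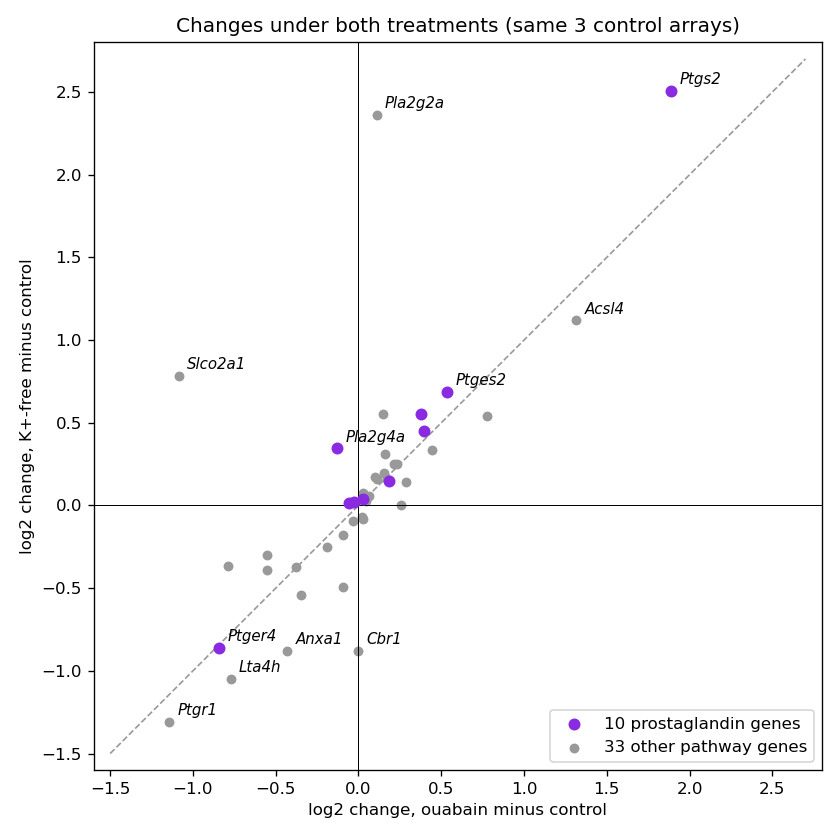
Horizontal axis, log2 change with ouabain against control, and vertical axis, the same for K+-free medium, for the 10 prostaglandin genes and 33 other pathway genes; the dashed line marks equal changes, and both axes share the same 3 control arrays. Pla2g2a (0.11 and 2.36) and Slco2a1 (-1.09 and 0.78) lie farthest from the line.

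Among 12 other genes of prostanoid synthesis, breakdown and transport, limma called 0 higher (2 at an unadjusted p under 0.05 with no fold limit) and 3 lower with ouabain, and in K+-free medium 2 higher and 4 lower, with median changes of 0.01 and -0.08. Slco2a1, the transporter that takes prostaglandins into cells for inactivation, moved in opposite directions, with log2 signals of 7.64, 7.50 and 7.52 in ouabain, 9.49, 9.43 and 9.35 in K+-free DMEM, and 8.78, 8.68 and 8.46 in control. It fell by 1.09 with ouabain (2.12-fold lower, adjusted p = 8.09e-07) and, in K+-free medium, rose by 0.78 (1.72-fold, adjusted p = 1.01e-05), a difference between the treatments of 1.87 (3.65-fold, adjusted p = 6.54e-08). Ptgr1, a reductase that inactivates prostaglandins after Hpgd, fell under both, to 6.67, 6.72 and 6.62 in ouabain and 6.51, 6.47 and 6.54 in K+-free medium, against 7.97, 7.68 and 7.79 in control, with changes of -1.14 (adjusted p = 2.22e-07) and -1.31 (adjusted p = 6.74e-08). Its relative Ptgr2 fell by 0.79 with ouabain and by 0.37 in K+-free medium. Cbr1, a carbonyl reductase that can convert prostaglandin E2, gave 10.70, 10.75 and 10.76 in ouabain, 9.84, 9.97 and 9.76 in K+-free DMEM, and 10.76, 10.78 and 10.67 in control. The ouabain and control arrays overlapped (adjusted p = 0.985), and K+-free medium gave a difference of -0.88 from control (adjusted p = 4.82e-07) and of -0.88 from ouabain (adjusted p = 2.89e-06). The efflux pump gene Abcc4 was called higher in K+-free medium (0.55, adjusted p = 1.46e-05) and not with ouabain (0.15, adjusted p = 0.0696), and the 2 differed by 0.41 (adjusted p = 0.000473). Ptges3, the cytosolic prostaglandin E synthase that also serves as a chaperone, was lower in K+-free medium (-0.49, adjusted p = 0.00105), where Ptges and Ptges2 rose, and gave -0.09 (adjusted p = 0.44) with ouabain.

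**Figure D4:**
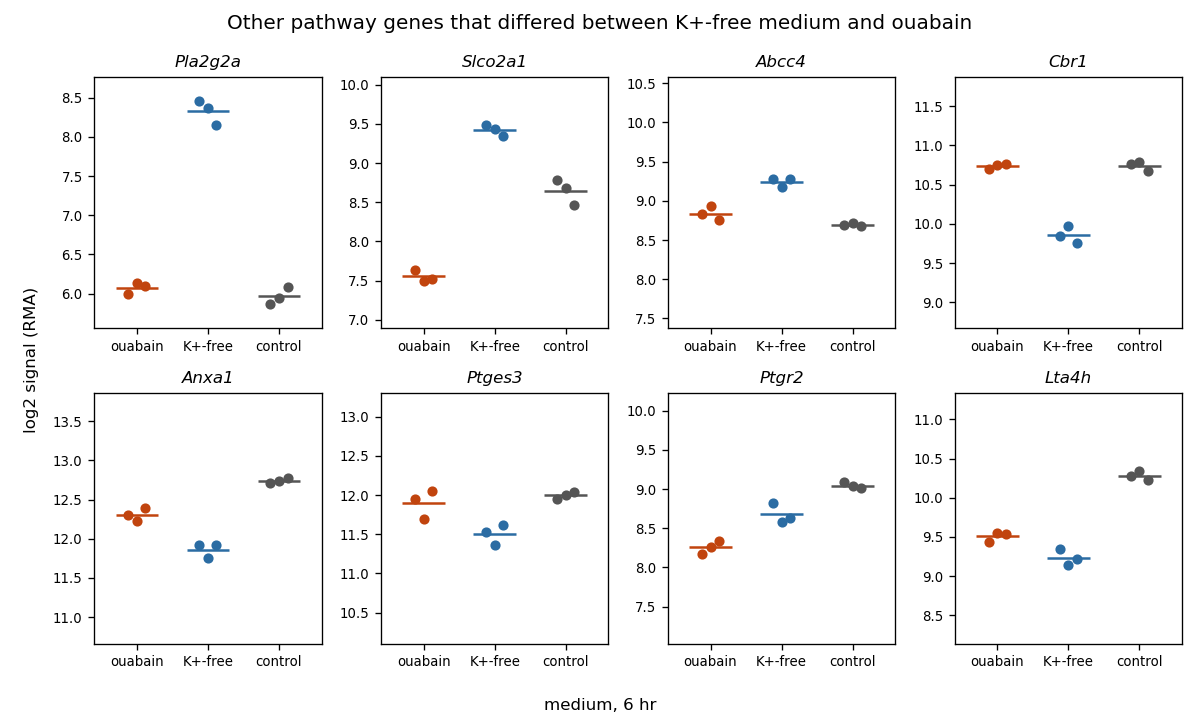
Log2 signal (vertical axis) on every array of 8 other pathway genes called different between K+-free medium and ouabain; points are arrays and lines are means of 3. Pla2g2a is raised in K+-free medium only, between 8.16 and 8.46, and Slco2a1 lies below control in ouabain and above it in K+-free medium.

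Of 6 other prostanoid receptor genes, 2 were higher and 2 lower with ouabain, and in K+-free medium 1 and 2, with medians of 0.18 and 0.07. Ptgfr, the prostaglandin F2-alpha receptor, which contracts smooth muscle, rose by 0.78 with ouabain (adjusted p = 6.35e-07) and, without extracellular K+, by 0.54 (adjusted p = 1.12e-05). Tbxa2r, the thromboxane receptor, fell by 0.35 and 0.54 under ouabain and in K+-free medium, and Ptgfrn, which encodes a membrane protein that lowers ligand binding to the F2-alpha receptor, by 0.55 and 0.30. Ptgdr2, a prostaglandin D2 receptor, was called higher with ouabain (0.28, 1.22-fold, adjusted p = 0.00118) and gave 0.14 (adjusted p = 0.051) in K+-free medium. Its values were far below the median on every array, where signal near background limits what can be seen. Between K+-free medium and ouabain limma called 0 of the 6 in either direction, with 1 higher and 4 lower at an unadjusted p under 0.05.

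In the lipoxygenase branch, which turns arachidonate into leukotrienes, 1 of 6 genes was higher and 1 lower with ouabain, and in K+-free medium 2 and 1. Lta4h, the hydrolase that forms leukotriene B4, fell by 0.77 with ouabain (adjusted p = 2.08e-06) and, without extracellular K+, by 1.05 (adjusted p = 1.61e-07), and the difference of K+-free medium from ouabain was -0.28 (adjusted p = 0.00958). Alox15, a lipoxygenase that oxygenates arachidonate at another carbon, rose by 0.45 and 0.34 under ouabain and in K+-free medium. Alox5, the enzyme that opens leukotriene synthesis, was called higher in K+-free medium (0.31, adjusted p = 0.0361) and gave 0.16 (adjusted p = 0.245) with ouabain, a difference between the treatments of 0.15 (adjusted p = 0.435). Its K+-free and control arrays overlapped, and all 9 values were below the array medians. Alox12, another lipoxygenase, gave 0.23 and 0.25, under the fold limit. The values of Alox15 and Alox12 were also below the median on every array. The list's median log2 change was 0.16 with ouabain and 0.22 in K+-free medium.

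For the 3 genes with the largest changes, the genes with the most similar profile were taken as those with the smallest root mean square difference over the 9 arrays, each gene first set to its control mean. Nearest to Ptgs2 were Enc1 (root mean square difference 0.0718 log2 units), F3, which encodes tissue factor (0.0981), Tppp (0.109), Epha2 (0.111) and Mmp28 (0.13). Enc1 changed by 1.95 with ouabain and 2.49 in K+-free medium, and F3 by 1.76 and 2.49. Nearest to Ptger4 were Alad (0.0529), Coq6 (0.0619), Rp2 (0.065), Prdx3 (0.066) and Pex6 (0.0662), and nearest to Ptges2 were F2r, the thrombin receptor gene (0.0369), Thra (0.058), Slc7a2 (0.0601), Stk4 (0.0626) and Zbtb33 (0.0637). This likeness is a description over 9 arrays that share treatments, and no shared control is read from it.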

How the data were processed

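Total RNA from the 9 cultures was hybridised to GeneChip Rat Gene 1.0 ST arrays. The authors deposited log2 signals per probe set. Per the labels these came from RMA in Partek, with versions not given in the sources used here, whereas the methods also name another program and normalization, so the exact steps are uncertain. RMA gives the probe intensities of all arrays a common distribution, so a change in total RNA per cell does not show. The deposited probe set signals did not share 1 distribution. A repeated quantile normalization moved the ouabain change of Ptges2 from 0.54 to 0.72 and that of Ptger4 from -0.84 to -0.71. The 27342 probe sets were named through the platform annotation (15097 with 1 symbol, 323 with several, 11922 with none, 15067 with a RefSeq identifier in GRCr8).

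limma 3.58.1 in R 4.3.3 fitted 1 mean per group over all 9 arrays, with empirical Bayes moderation and Benjamini-Hochberg adjustment over all probe sets. Calls combined the 0.05 limit on the adjusted p with the methods' limit of 1.2-fold. Confidence intervals (95%) come from the same fit and are not adjusted. With 3 arrays a side, exact permutation could not give a p below 0.1 and was not used. The code was tested on simulated data. The methods describe 3 independent experiments, with controls and treatments in parallel, and the labels only number the replicates. The number of arrays limits the precision. The 10 genes, the pathway and marker lists and the rule for named genes (all 10, up to 4 per pathway list by size of change in either treatment, and the 5 nearest profiles to the 3 genes with the largest changes) were chosen with earlier results of these data known. Abcc4, Ptges3 and Lpcat3 were named outside that rule. Alternatives covered normalization, centring, dim probe sets, the probe sets tested, the arrays in the fit, a replicate block, moderation, the methods' t-test, the fold limit, the probe set of a gene and leaving out each array. Ptgdr and Pla2g4b share their probe sets with other symbols and were not analysed here, nor was Pla2g4c. Figures were drawn with matplotlib 3.10.9.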

Additional observations from a re-analysis of the deposited data

How the results depend on the processing

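No called change turned its direction. Over 3 comparisons and all alternatives, 700 log2 changes of the 10 genes kept their side of the threshold, 4 gained a call and 10 lost one. Centred on B2m, the number of the 10 genes called with ouabain was 2 higher and 2 lower, and Pla2g4a in K+-free medium lost its call (0.19, adjusted p = 0.03); the cause was not tested. With no fold limit, 8 other pathway genes were called higher with ouabain and 12 in K+-free medium. With a fold limit of 1.5, which admits fewer genes by construction, 3924 probe sets were called with ouabain, 4318 in K+-free medium and 1149 between K+-free medium and ouabain. Of the 10 genes 1, 2 and 1 were then higher in these comparisons, in that order, and of the other pathway genes 2, 3 and 2 were higher and 4, 4 and 1 lower. By the methods' t-test, 8546, 8890 and 4334 probe sets passed unadjusted and 7719, 8162 and 2896 after Benjamini-Hochberg (8266, 8624 and 3955 by an ordinary analysis of variance over the 3 groups), and 2 other pathway genes were then lower between K+-free medium and ouabain.

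Leaving out 1 array at a time gave 8435 to 9701 probe sets called with ouabain, 8863 to 9525 in K+-free medium and 4291 to 4639 between K+-free medium and ouabain. The 10 genes then gave 4 to 5, 5 to 6 and 2 to 3 higher and 1, 1 and 0 lower, and the other pathway genes 3 to 6, 6 to 7 and 4 to 5 higher and 9, 10 and 4 to 5 lower. Arrays with the same replicate number correlated in their deviations at -0.05 to 0.31, over 0.1 in 4 of 9 pairs. Arrays with different numbers correlated at -0.28 to 0.16, and 7 of 9 arrays correlated best with their own number. The labels do not state pairs, so the main fit used none and the replicate block was run as an alternative. With the replicate block 8978, 9352 and 4587 probe sets were called, and the counts of the 10 genes and of the other pathway genes did not change (4 higher and 1 lower, 5 and 1, 2 and 0). Ptgs1, Ptgir, Ptger2 and Hpgd lay below the array medians on all 9 arrays, where signal over background limits what can be seen. Groups of 3 arrays were too small to test for outlying arrays.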
